A study of Caenorhabditis elegans with 26 samples.

Results

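To ask how similar the small RNAs of the strains were once miR-235 had returned to high levels in the wild type, the libraries of 25 h, 26 h and 27 h after plating were compared. The larvae came from strain HW2643 with the allele *mir-235(xe181[seed_mutant])*, referred to as *mir-235(seed_mut)* or as the mutant, and from wild-type N2. Whole *Caenorhabditis elegans* larvae were grown at 25 °C on plates from synchronized, untreated L1 larvae of both strains. The comparison holds 6 of the 26 libraries of the series, taken by labelled strain and hour. The hours themselves are those after miR-235 had recovered in N2, so that its levels there, and in part its strain difference and the contrasts of that difference with other hours, follow from the choice. There were 3 libraries of the mutant and 3 of N2, 1 per strain and hour. The mutant carries an edit in the seed of miR-235-3p with matching changes on the opposite strand of the hairpin, so the strains make different miR-235 sequences with separate entries, and the reads of both entries were summed per arm. Each strain was grown as a single culture series, so that strain and culture cannot be told apart, and in whole larvae fewer cells of a type and less RNA per cell cannot be told apart either.

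A miRNA is cut from a hairpin as a duplex, of which the guide strand (miR) is kept by an Argonaute protein while the passenger strand (miR*) is usually lost. The seed at the 5′ end of the guide pairs with target mRNAs, and miRNAs with a common seed form a family. miR-235 represents the miR-92 family in *C. elegans* and is known for holding progenitor cells quiescent in starved larvae. Larval development in *C. elegans* runs in cycles between molts, and many RNAs rise and fall with each cycle, so levels at neighbouring hours differ even within a strain.

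The 6 libraries held between 2658960 and 3305730 miRNA counts, within the range of 1342771 to 4279734 over all 26 libraries. miR-58a-3p or miR-81-3p, both of the bantam-related miR-58 family, led each of them with 13.8% to 17.8% of counts, and 305 to 317 mature sequences were detected. Levels are given as CPM, the count scaled to 1000000 counts of the library. Reads of the edited sequence separated the strains as labelled: the entry of the allele that a strain does not carry took 0.00898% to 0.106% of miR-235-3p counts in the mutant and 0.0215% to 0.219% in N2. The muscle miRNA miR-1-3p lay between 27668 and 33397 CPM in the mutant and between 29594 and 35845 CPM in N2, and the intestinal miR-60-3p between 57.9 and 99.2 CPM in the mutant and 57.6 and 84.4 CPM in N2.

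miR-235-3p, whose gene lies on chromosome I outside coding genes, was abundant in both strains, at rank 14 to 16 of all mature miRNAs. Mutant larvae had 25664, 25140 and 23171 CPM at 25, 26 and 27 h, against 18335, 21769 and 22619 CPM in N2 larvae at the same hours. The lowest mutant library stood above the highest N2 library, but the gap narrowed with each hour, with mutant levels of 1.40, 1.15 and 1.02 times those of N2. The counting intervals of the libraries at 27 h were also apart, at 23005 to 23337 CPM in the mutant and 22452 to 22788 CPM in N2 (exact Poisson 95%, counting error only).

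The mean over the hours was 24658 ± 1314 CPM in the mutant and 20908 ± 2268 CPM in N2 (SD, n = 3 each). With the hour as a factor the mutant was higher by 0.21 ± 0.10 (log2, SE), or 1.16-fold, with a 95% interval of 0.0048 to 0.42 on the log2 scale. The adjusted p was 0.540 in edgeR, above the threshold of 0.05. An exact permutation test over the 6 libraries gave p = 0.1, and an exact sign-flip test over the 3 hours p = 0.25, both two-sided and the smallest that these designs can give. The difference rested most on 25 h: it was 0.10 without the mutant library or 0.10 without the N2 library of that hour, and 0.34 without either library of 27 h. The separate entries also mean that recovery of reads may differ between the sequences, which was not tested.

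**Figure D1:**
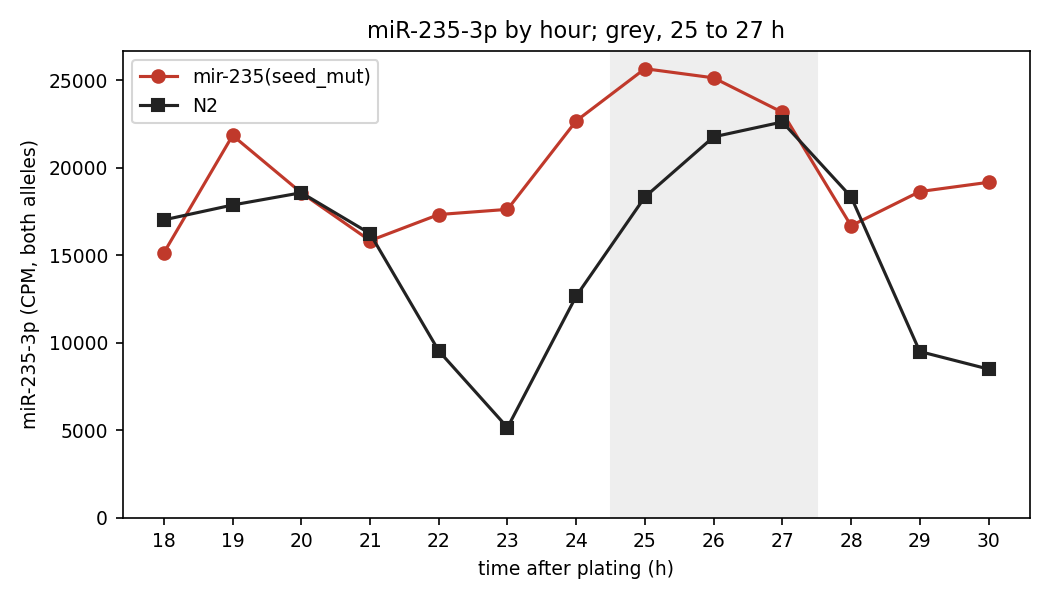
miR-235-3p, in CPM with reads of both alleles summed, plotted by hour after plating in *mir-235(seed_mut)* (red circles) and N2 (black squares), 1 library per point. In the grey span from 25 h to 27 h the mutant lies above N2 at each hour and the ratio shrinks to 1.02 at 27 h.

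The hours on either side put these ratios in place. Mutant larvae had 1.82, 3.42 and 1.79 times the N2 level at 22, 23 and 24 h, and 0.910, 1.96 and 2.26 times at 28, 29 and 30 h. In a joint fit of 24 libraries, the strain difference of miR-235-3p was 0.21 ± 0.24 at 25 to 27 h, 0.91 ± 0.24 at 22 to 24 h and 0.69 ± 0.25 at 28 to 30 h (log2, SE). The difference at 25 to 27 h was smaller than that at 22 to 24 h, with a contrast of -0.71 ± 0.34, which missed the threshold (edgeR, adjusted p = 0.345, and -0.53 with adjusted p = 0.668 without the N2 library of 23 h). Against 28 to 30 h the contrast was -0.49 ± 0.34 (adjusted p = 0.743) and against 18 to 20 h it was 0.39 ± 0.34 (adjusted p = 0.650). miR-235-3p showed no called trend within the window, with a slope of 0.05 ± 0.07 log2 per h shared by the strains (adjusted p = 0.696) and a slope difference of -0.24 ± 0.13 (adjusted p = 0.967).

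The passenger miR-235-5p was close to the limit of detection. Mutant libraries held 0, 1 and 0 reads at 25, 26 and 27 h, against 10, 5 and 6 reads in N2 libraries. Every N2 library thus had more reads than every mutant library. Summed over the hours this was 0.113 CPM in the mutant (exact Poisson 95% interval 0.00287 to 0.631) and 2.31 CPM in N2 (1.43 to 3.53), intervals that do not overlap but cover counting error only. By a rule of 3 counts, a count of 0 allows up to 1.02 CPM in the mutant library at 25 h and 0.929 CPM in that at 27 h. The exact Poisson 95% intervals of these libraries reach higher, to 1.25 and 1.14 CPM. The passenger fell below the count filter of the main test; with no filter edgeR gave it an adjusted p of 0.0362. Outside the window the mutant was the higher one only at 28 h and 29 h. It had 0.261 and 0.675 CPM there, against 0 and 0.279 CPM in N2. At 21, 22, 23, 24 and 30 h the passenger had 0, 0.356, 0, 3.89 and 0.328 CPM in the mutant. N2 had 0.750, 0.375, 0.745, 4.01 and 0.605 CPM at those hours. At 18, 19 and 20 h it had 0.291, 0.784 and 0.966 CPM in the mutant, against 3.27, 2.12 and 2.66 CPM in N2. Here too the strains carry different sequences with entries of their own.

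Across all miRNAs, the strains were close. Of 222 miRNAs tested, which held 99.99% of counts, 0 (0%) differed between mutant and N2 (edgeR quasi-likelihood test with Benjamini-Hochberg adjustment, smallest adjusted p = 0.424), while 20 had an unadjusted p under 0.05, 9 of them higher and 11 lower in the mutant. DESeq2 called 1 miRNA lower and limma 0, with 9 and 17 at an unadjusted p under 0.05. Of the differences, 111 were positive and 111 negative, with a median of -0.00097. Among the 171 with mean counts of 50 or more, 165 (96.5%) differed by less than 0.5 on the log2 scale and 137 by less than 0.25, and the median absolute difference was 0.12. The precision was moderate: the 95% interval had a median half-width of 0.33 and lay within ± 1 for 162 of them and within ± 0.5 for 105, and differences of up to -0.76 in miRNAs with the same sign at each hour were not called after adjustment. Values of the 3 mutant libraries lay all above those of N2 for 15 miRNAs (6.76%) and all below for 12 (5.41%). With the hour as a factor, p-values of the strain difference measure how that difference varies between the 3 hours, since there are no replicates at an hour.

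**Figure D2:**
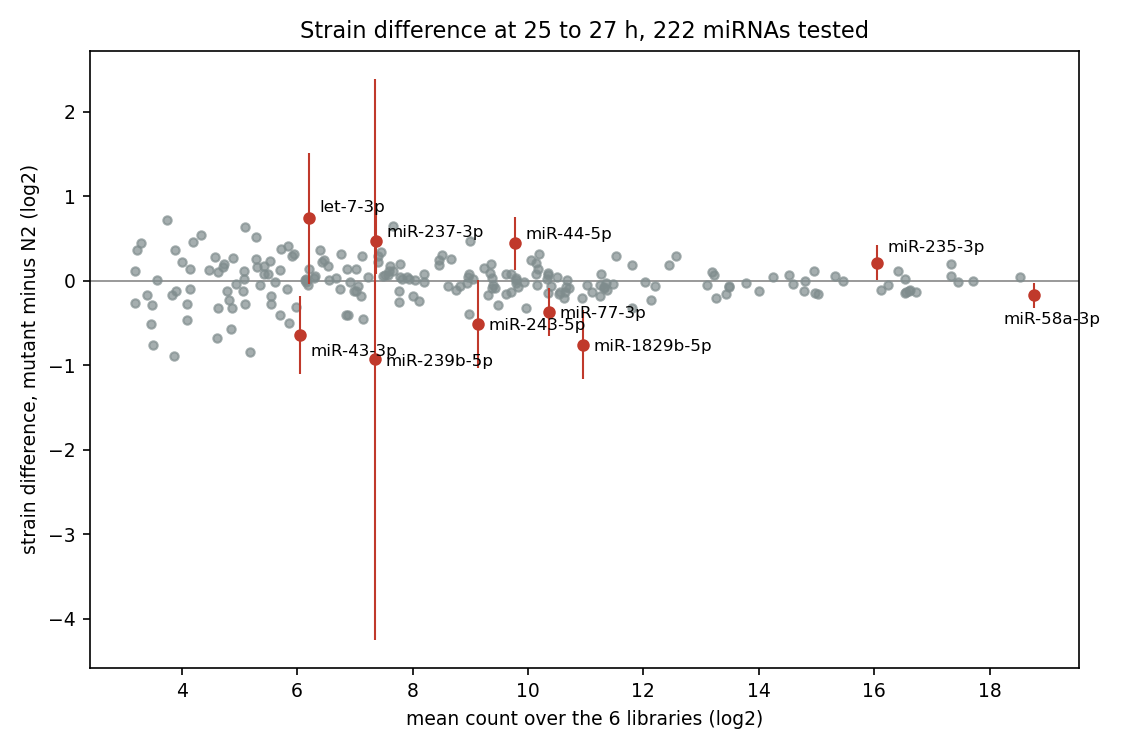
Strain difference at 25 to 27 h (log2, mutant minus N2) against the mean count over the 6 libraries (log2) for the 222 miRNAs tested, 1 point each. Red points are 10 miRNAs described in the text with their 95% intervals, the widest of them that of miR-239b-5p, and 165 of the 171 miRNAs with at least 50 counts lie within ± 0.5.

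On the higher side by the naming rule were miR-42-5p and miR-44-5p of the chromosome II cluster *mir-42* to *mir-45*, whose other arms were lower or differed less. miR-42-5p, the more abundant arm here of a hairpin whose 3p arm belongs to the miR-35 family, had 178, 154 and 266 CPM in mutant libraries at 25, 26 and 27 h, against 125, 120 and 172 CPM in N2 libraries. The mutant value was the higher one at each hour, which the naming rule requires, and the groups overlapped. The difference was 0.48 ± 0.16 (edgeR, adjusted p = 0.424). miR-44-5p of the same cluster had 309, 267 and 438 CPM in the mutant, against 178, 244 and 312 CPM in N2. It was also higher at each hour by that rule, with overlapping groups, and differed by 0.44 ± 0.15 (adjusted p = 0.424). Another 5p arm of the cluster, miR-43-5p, had 62.9, 39.9 and 88.3 CPM in the mutant and 47.2, 46.9 and 52.1 CPM in N2, and was lower in the mutant at 26 h.

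miR-237-3p, the passenger of a hairpin whose guide shares the seed of lin-4, had 55.1, 65.1 and 73.7 CPM in the mutant, against 40.9, 50.2 and 45.6 CPM in N2. The groups did not overlap, and the difference was 0.47 ± 0.18 (adjusted p = 0.446). Its guide miR-237-5p had 9923, 10403 and 8789 CPM in the mutant and 11349, 8548 and 8784 CPM in N2, with a difference of 0.00139. The other miRNAs that were highest in the mutant by the naming rule were miR-1018, a mirtron, miR-2212-5p, miR-789-5p, miR-1819-3p and miR-1821-3p, at 0.32 to 0.42 with adjusted p between 0.558 and 0.623. They were higher at each of the 3 hours by that rule, and all had means of 175 counts or fewer. miR-796, which was below the count minimum of the rule and is named after its values were seen, had 15.0, 13.9 and 13.6 CPM in the mutant and 8.18, 8.77 and 9.71 CPM in N2 (0.64 ± 0.23, adjusted p = 0.446).

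On the lower side, miR-1829b-5p showed the largest difference by the naming rule, which takes miRNAs with a mean of 50 counts or more and the same sign at each hour. It had 439, 641 and 448 CPM in mutant libraries, against 919, 745 and 834 CPM in N2 libraries. All mutant values lay below all N2 values, with ratios of 0.478, 0.861 and 0.536. The difference was -0.76 ± 0.18, or 0.592-fold (95% interval 0.446 to 0.787, edgeR, adjusted p = 0.424). It was the miRNA that DESeq2 called (adjusted p = 0.012) and it passed with no count filter (0.00101), while over all alternatives its adjusted p ran between 3.41e-08 and 0.940. The other arm of this hairpin, miR-1829b-3p, differed by -0.06. The hairpins named miR-1829 are close in sequence and may share reads, so that the split between them is uncertain. The arms miR-1829a-3p (15.3, 16.9 and 16.7 CPM in the mutant, 24.5, 20.3 and 23.0 CPM in N2) and miR-1829a-5p (225, 226 and 230 CPM in the mutant, 214, 205 and 207 CPM in N2) moved to opposite sides without overlap, by -0.50 ± 0.21 (adjusted p = 0.446) and 0.09 ± 0.15.

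miR-43-3p, which carries the miR-2 seed, had 19.0, 13.9 and 19.2 CPM in the mutant, against 38.7, 23.0 and 20.4 CPM in N2. The groups did not overlap, with ratios of 0.492, 0.605 and 0.942 and a difference of -0.65 ± 0.22 (adjusted p = 0.424). miR-77-3p had 353, 375 and 440 CPM in the mutant, against 528, 462 and 486 CPM in N2. These groups were apart as well, with a difference of -0.37 ± 0.13 (adjusted p = 0.446). The other arm miR-77-5p, more abundant in these libraries, differed by 0.07. The remaining ones of the naming rule were miR-4816-5p, miR-124-3p (a miRNA of sensory neurons in this animal), miR-79-3p and miR-799, between -0.41 and -0.31 with adjusted p between 0.446 and 0.624.

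**Figure D3:**
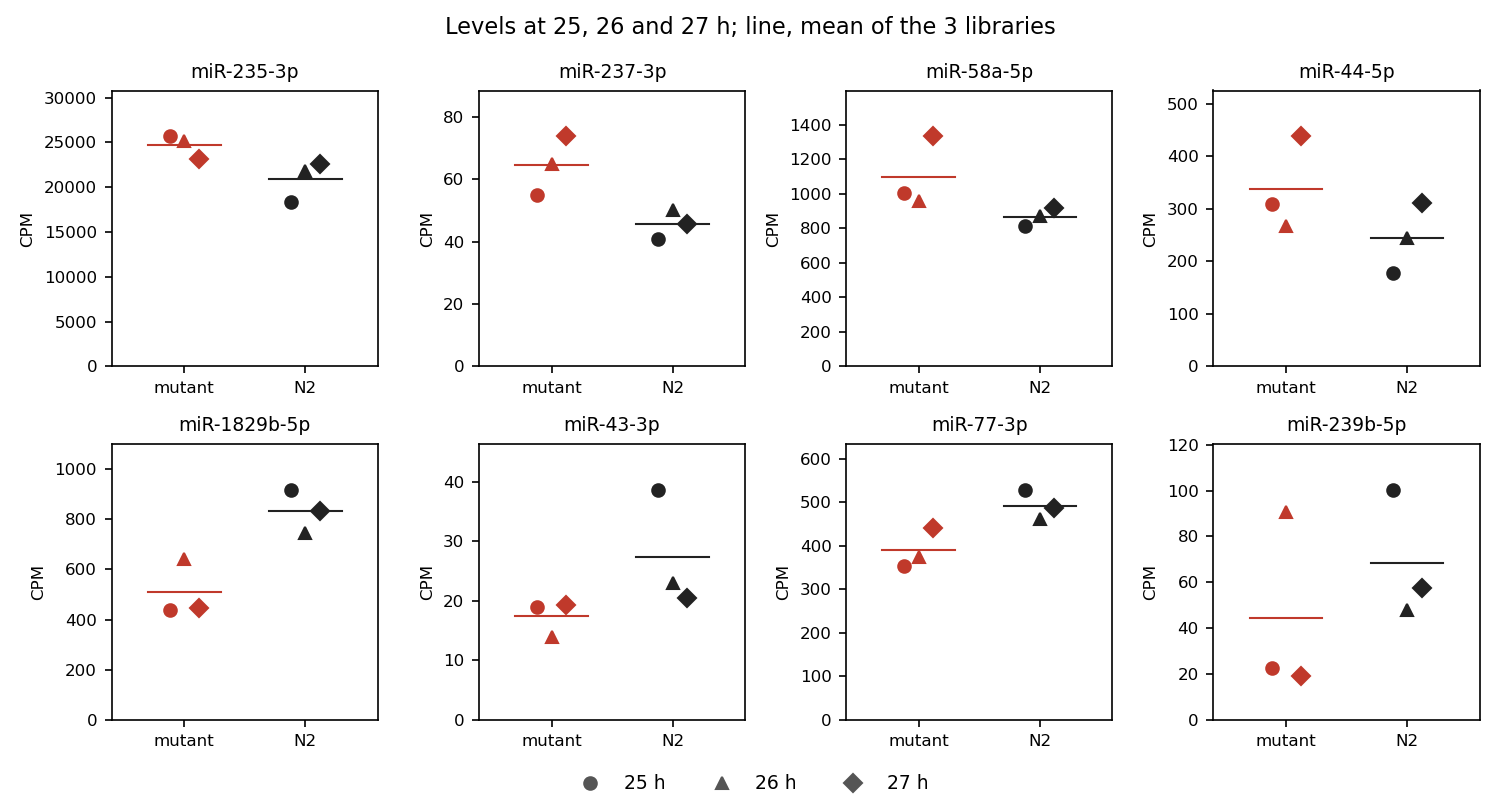
Levels of 8 miRNAs in CPM in the 3 mutant libraries (left, red) and the 3 N2 libraries (right, black), with a marker per hour and a line at the mean of the 3 libraries, on axes that start at 0. miR-235-3p, miR-237-3p and miR-58a-5p lie above N2 and miR-1829b-5p, miR-43-3p and miR-77-3p below it without overlap, while miR-239b-5p is low in the mutant at 25 h and 27 h and high at 26 h.

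Within the window, some miRNAs had a ratio at 26 h on the other side of N2 from those at 25 h and 27 h. How many of all miRNAs did so was not counted, and there is 1 library per strain at 26 h. miR-239a-5p and miR-239b-5p are described outside the naming rule, with their values known. miRNAs of other families, such as miR-48-5p and miR-80-3p, also changed sides at 26 h. miR-239b-5p, one of a pair of miRNAs linked to stress responses and lifespan, had 22.8, 90.6 and 19.2 CPM in the mutant, against 100, 48.1 and 57.3 CPM in N2. The mutant was thus at 0.227 of N2 at 25 h and 0.335 at 27 h, and at 1.88 times N2 at 26 h. miR-239a-5p did likewise, with 947, 1585 and 776 CPM in the mutant and 1879, 908 and 1227 CPM in N2. Over the 3 hours the differences were -0.93 ± 0.93 and -0.32 ± 0.54 (adjusted p = 0.857 and 0.913). Outside the window 26 h was not the odd hour. The mutant had 1.37 to 7.79 times the N2 level of miR-239b-5p at 18 to 24 h. The ratios were 6.88, 3.23 and 0.516 at 28, 29 and 30 h. For miR-239a-5p the ratio was 1.78 at 24 h and 9.91 at 28 h, and only 25 h and 27 h lay below N2.

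When a library of 26 h was left out, which leaves only 25 h and 27 h to estimate the difference, edgeR called more miRNAs. There were 2 higher and 8 lower in the mutant without the N2 library of 26 h, and 2 higher and 7 lower without that of the mutant. Both settings estimate the difference from the same libraries of 25 h and 27 h, so they are not separate results. They leave fewer residual degrees of freedom than the 2 of the full fit. Without the N2 library the lower ones included miR-239b-5p (-1.92, adjusted p = 1.56e-09), miR-239a-5p (-0.88, 1.45e-06), miR-1829b-5p (-1.03, 6.59e-08) and miR-243-5p (-0.87, 0.000988), and the higher ones were let-7-3p (1.10, 0.0110) and miR-44-5p (0.59, 0.0366). The other lower ones were miR-38-3p, miR-66-5p, miR-238-5p and miR-797-3p. Over all alternatives the adjusted p ran up to 0.940 for miR-1829b-5p and up to 0.994 for the others given here with values. With any other library left out, 0 miRNAs were called, with 10 to 21 at an unadjusted p under 0.05. The libraries of 26 h had the lowest total of the 6 in the mutant, with 2658960 counts, and the highest in N2, with 3305730, and the part of depth in these values was not tested.

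Guide and passenger strands were compared in 77 hairpins with both arms tested, the guide being taken as the arm with the higher mean count in the 6 libraries. Guides had a median difference of -0.03 (33 positive and 44 negative) and passengers of 0.003 (39 positive and 38 negative), and in 40 hairpins the arms had opposite signs. For let-7, which drives the change to adult cell fates, the guide let-7-5p had 25396, 28574 and 23954 CPM in the mutant and 25620, 26511 and 26530 CPM in N2. Its passenger let-7-3p had 29.6, 18.8 and 45.5 CPM in the mutant, against 22.7, 19.4 and 11.7 CPM in N2. The passenger thus differed mainly at 27 h, where the ratio was 3.91, with 0.74 ± 0.34 over the hours (edgeR, adjusted p = 0.549).

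For miR-58a, which led 5 of the 6 libraries, the guide miR-58a-3p had 155888, 134686 and 138396 CPM in the mutant and 178383, 153634 and 142747 CPM in N2 (-0.17 ± 0.07, adjusted p = 0.446). The passenger miR-58a-5p had 1002, 955 and 1331 CPM in the mutant and 814, 869 and 915 CPM in N2 (0.30 ± 0.12, adjusted p = 0.446). At 3 of 3 hours the mutant had the lower guide and the higher passenger level, and the passenger values did not overlap. In miR-243, whose guide can enter the siRNA pathway through the Argonaute RDE-1, the guide miR-243-3p had 2094, 2537 and 2117 CPM in the mutant and 1518, 1842 and 2046 CPM in N2 (0.30 ± 0.12, adjusted p = 0.446). The passenger miR-243-5p had 145, 194 and 135 CPM in the mutant and 282, 170 and 215 CPM in N2 (-0.51 ± 0.23, adjusted p = 0.549).

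Seed families and clusters were close between the strains, and 0 members of any list passed the test, as was true of all miRNAs. The let-7 family, of which let-7, miR-48, miR-84 and miR-241 time larval cell fates, summed to 69347 to 75031 CPM in the mutant and 69160 to 72400 CPM in N2, with 4 of 7 members positive and a median of 0.02. The lin-4 family, lin-4-5p and miR-237-5p, summed to 9158 to 10797 CPM in the mutant and 8922 to 11787 CPM in N2. The miR-35 family, needed in embryos, summed to 1323 to 1495 CPM in the mutant and 1250 to 1795 CPM in N2, with a median of 0.03 over 7 tested members, miR-41-3p being too rare.

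The miR-58 family held 328281 to 350326 CPM in the mutant and 338669 to 347263 CPM in N2, with 2 of 4 tested members positive. The miR-51 family had 1 of 6 members positive and a median of -0.06, and the miR-44 seed family 1 of 4 and -0.14. The miR-2 seed family, listed here with both arms of miR-797, had 1 of 5 positive, with a median of -0.23. The positive one was miR-797-5p (0.17), beside -0.40 for miR-797-3p, and which of these arms carries the seed was not checked. The cluster of miR-229 and miR-64 to miR-66 within *gcn-1* had 4 of 4 members negative, between -0.13 and -0.11, beside a median of -0.00097 over all miRNAs. The neuronal miRNAs lsy-6-3p, miR-124-3p, miR-790-5p and miR-791-3p summed to 60.7 to 90.4 CPM in the mutant and 78.0 to 93.0 CPM in N2, with a median of -0.22. EBAX-1 is a ubiquitin ligase adapter that takes part in miRNA decay. Of the miRNAs listed for it, 6 of 11 tested were positive, with a median of 0.00895. This list holds both arms of miR-788 and leaves out miR-235-3p. Its median is the value of miR-788-3p, beside -0.21 for the other arm, miR-788-5p. The paper takes that other arm as the guide and reports stabilization of the guide but not of the passenger. The list median therefore does not describe EBAX-1-sensitive miRNAs alone. List medians depended on the hours matched. When mutant libraries of 24 to 26 h were set against N2, the medians of the miR-51 family (0.33), the miR-2 seed family (0.30) and the neuronal miRNAs (0.18) turned positive, and those of the let-7 family (-0.04) and the miR-58 family (-0.06) negative, while lin-4 reached 0.38 and the miR-35 family and the EBAX-1 list 0.18, beside 0.08 over all miRNAs. With mutant libraries of 26 to 28 h the medians of the let-7 (-0.10), lin-4 (-0.04), miR-35 (-0.04) and miR-58 (-0.02) families and of the EBAX-1 list (-0.05) turned negative.

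More miRNAs passed the test for a change within the window than for a strain difference. With a slope shared by the strains, 8 miRNAs (3.6%) rose and 3 (1.35%) fell over 25 to 27 h. miR-5592-5p had 11.9, 31.2 and 85.5 CPM at 25, 26 and 27 h in the mutant and 21.9, 31.5 and 66.7 CPM in N2, a slope of 1.12 ± 0.14 log2 per h (edgeR, adjusted p = 0.00204), and its other arm miR-5592-3p rose by 0.96 ± 0.12 (0.00204). miR-246-3p had 59.5, 126 and 193 CPM in the mutant and 63.6, 90.4 and 164 CPM in N2 (slope 0.78 ± 0.10, 0.00204). miR-357-3p, from the *mir-357* and *mir-358* cluster within *symk-1*, had 155, 291 and 453 CPM in the mutant and 207, 244 and 408 CPM in N2 (0.64 ± 0.09, 0.00417). Each of these rose at every step in both strains, and they kept their calls when any 1 of the 6 libraries was left out.

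The abundant miR-71-5p, which promotes long life and survival of starvation, had 43359, 63300 and 70052 CPM in the mutant and 34597, 52448 and 66988 CPM in N2, a slope of 0.43 ± 0.07 (adjusted p = 0.00838). Mutant levels were 1.25, 1.21 and 1.05 times those of N2. miR-59-3p, miR-85-3p and miR-240-5p rose with slopes of 0.53 ± 0.12, 0.50 ± 0.10 and 0.39 ± 0.08. The fallers were miR-79-3p (442, 256 and 225 CPM in the mutant, 495, 316 and 300 CPM in N2), miR-244-5p (14911, 10409 and 8549 CPM in the mutant, 14468, 8017 and 8421 CPM in N2) and miR-2-5p, the passenger of the hairpin beside *mir-71*, with slopes of -0.41 ± 0.08, -0.38 ± 0.07 and -0.31 ± 0.06. These last 7 calls each ended when 1 or more libraries were left out: without the mutant library of 25 h there were 4 risers and 0 fallers, and without the N2 library of 25 h 6 risers and 0 fallers.

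Of the late L3 risers listed, 7 came from another time course and 3 of these rose, beside 3.6% of all miRNAs. A further 4 had been listed from earlier results of these data, and that they rose is not independent evidence. The median slope of all 11 was 0.50, beside -0.03 over all miRNAs. The slopes did not separate the strains. For 0 of 222 miRNAs (0%) did the slope differ between mutant and N2 (edgeR, 7 at an unadjusted p under 0.05), and DESeq2 and limma also called 0, with 2 and 5 at that level.

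**Figure D4:**
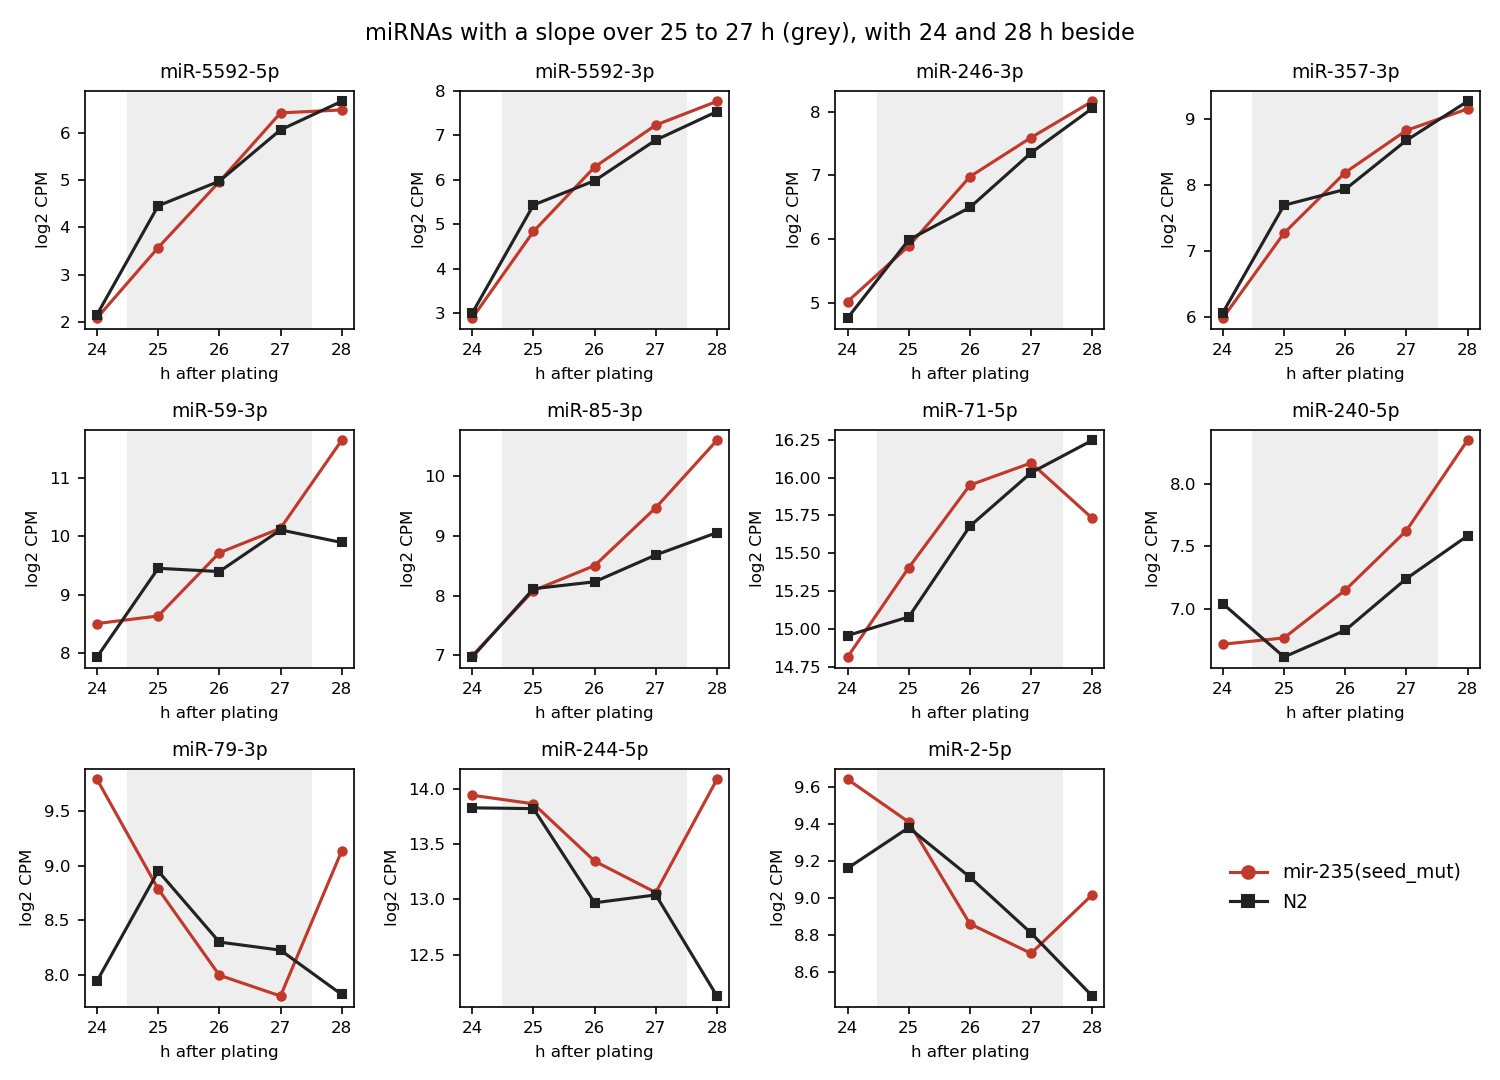
Levels (log2 CPM) of the 11 miRNAs with a called slope by hour after plating in *mir-235(seed_mut)* (red circles) and N2 (black squares), 1 library per point, with the tested hours in grey and 24 h and 28 h shown beside them. The 8 risers are higher and the 3 fallers lower at 27 h than at 25 h in both strains, with miR-5592-5p the steepest at 1.12 log2 per h.

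The strains were also compared at each hour alone. Over 177 miRNAs, the median absolute log2 ratio of mutant to N2 was 0.21, 0.17 and 0.15 at 25, 26 and 27 h, which ranked 6, 3 and 1 from the smallest of the 13 hours. Other hours were as close, with 0.16 at 22 h, 0.18 at 29 h and 0.20 at 30 h, all below the value of 25 h, while it was 0.60 at 23 h and 0.45 at 28 h. For comparison, neighbouring hours within a strain differed by a median of 0.27 and 0.21 in the mutant and 0.26 and 0.11 in N2. When miR-235-3p was left out and each mutant library was set against all N2 hours, those of 25, 26 and 27 h had the smallest SD of log2 ratios with the N2 libraries of 26, 27 and 28 h, at 0.34, 0.27 and 0.33, against 0.38, 0.28 and 0.34 for the same hour. These values share libraries and carry no test. With the mutant taken 1 h earlier or 1 h later, 0 miRNAs differed from N2 (edgeR, 25 and 20 at an unadjusted p under 0.05). The SD of the strain differences, over miRNAs with a mean of 50 counts or more, was then 0.31 and 0.29. It was 0.23 with the hours matched. The median of the late L3 risers moved from 0.02 with matched hours to -0.67 and 0.77.

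**Figure D5:**
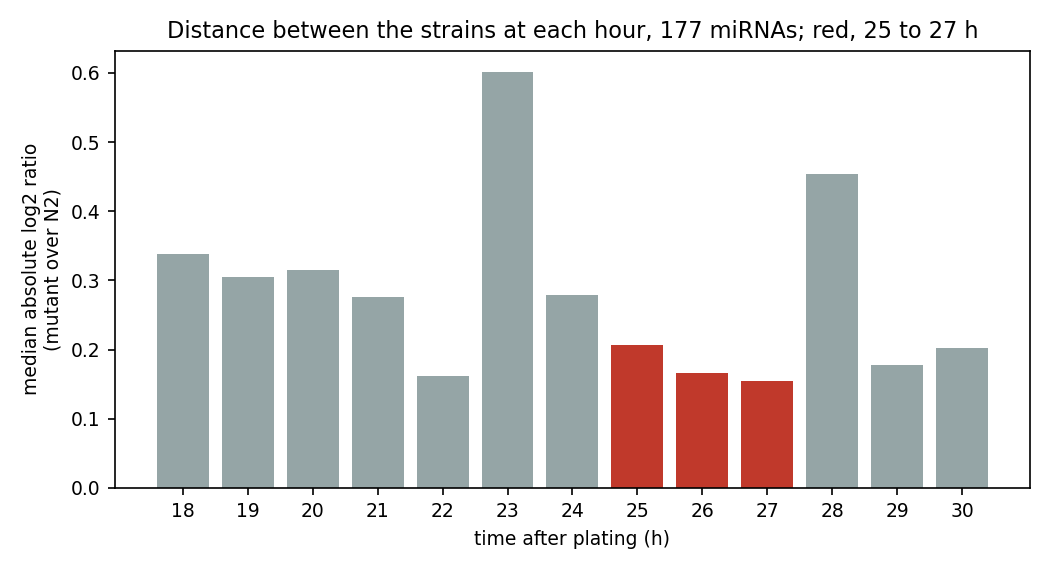
Median absolute log2 ratio of mutant over N2 across 177 miRNAs at each hour after plating, 1 library per strain and hour, with 25 h to 27 h in red. The bars of 25, 26 and 27 h stand at 0.21, 0.17 and 0.15, that of 22 h at 0.16 and that of 23 h at 0.60.

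Whether the differences at 25 to 27 h were particular to these hours was tested against the other windows of 3 hours in the joint fit, in which the 3 contrasts share the libraries of 25 to 27 h. Of 218 miRNAs, 0 (0%) differed from 22 to 24 h, 0 (0%) from 28 to 30 h and 0 (0%) from 18 to 20 h (edgeR), with 31, 18 and 23 at an unadjusted p under 0.05. DESeq2 called 4, 1 and 1, with 33, 19 and 19 at that level. Its 4 calls against 22 to 24 h were miR-42-5p, miR-44-5p, miR-124-3p and miR-79-3p, and the single ones miR-42-5p and miR-243-5p. Without the N2 library of 23 h, which has the lowest total, edgeR called 0, 2 and 0, with 16, 20 and 28 at that level. The pair called was miR-71-5p and miR-42-5p.

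Some of the miRNAs behind these values changed sides between windows. miR-44-5p was 1.74, 1.09 and 1.40 times N2 in the mutant at 25 to 27 h, and 0.817, 0.603 and 0.766 times at 22 to 24 h, a contrast of 1.15 ± 0.32 (edgeR, adjusted p = 0.222). miR-124-3p was 0.834, 0.789 and 0.697 times N2 at 25 to 27 h and 1.45, 4.03 and 1.76 times at 22 to 24 h (-1.24 ± 0.30, adjusted p = 0.203). miR-71-5p was 1.25, 1.21 and 1.05 times N2 at 25 to 27 h and 0.700, 0.706 and 0.548 times at 28 to 30 h (0.80 ± 0.24, adjusted p = 0.467). Among the 171 more abundant miRNAs, 20 were on one side of N2 at all hours of 25 to 27 h and on the other at all hours of 22 to 24 h, while 10 kept their side. For 28 to 30 h these counts were 12 and 14, and for 18 to 20 h 8 and 9. Those of 22 to 24 h include the N2 library of 23 h and were not repeated without it.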

How the data were processed

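Per the study's methods, the authors removed adapters and aligned to ce10 by QuasR, which calls Bowtie. They counted sense reads whose starts lie close to that of a miRBase mature sequence. The deposited raw counts are whole reads for 439 entries. The Bowtie version and the matching of edited miR-235 reads are not given in the sources used here. The deposited log2 table (depth-scaled counts plus a pseudocount of 8) was recomputed from the counts within 0.0005 and not tested. CleanTag libraries were sequenced as single-end reads, and as no molecular identifiers are mentioned, intervals cover counting error only.

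miR-235 entries of both alleles were summed per arm, leaving 437. The test was that of edgeR 4.0.16 under R 4.3.3 (TMM, filterByExpr by strain, estimateDisp, robust glmQLFit, glmQLFTest), two-sided, with Benjamini-Hochberg adjustment over all miRNAs tested and a threshold of 0.05. The strain difference, mutant minus N2, was fitted with the hour as a factor on 6 libraries (2 residual degrees of freedom). The hour stands for the study's time term. Deviations from the strain means correlated between the strains at r = 0.54 at 25 h, -0.26 at 26 h and 0.58 at 27 h. Slopes used linear time, and contrasts of windows used 24 libraries with the 21 h libraries left out. Poisson and Wilson intervals are 95%, and a count of 0 allows 3 counts. Scripts were tested on simulated counts.

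All tests across miRNAs were also run with size factors or totals in place of TMM, without the filter or with a mean count minimum of 50, with DESeq2 1.42.0 and at a threshold of 0.01. The strain difference and slopes were also tested by limma 3.58.1 on log2 values with a pseudocount of 8. Libraries of 25 to 27 h were left out in turn for all but the slope difference, and the hour block for the strain difference and the contrasts of windows, the last also without the N2 23 h library. Only the strain difference was tried with a pseudocount of 1, linear time, a spread shared across windows, mutant hours shifted by 1 h either way and a strain's own allele only. Named miRNAs were both arms of miR-235, the 8 with the largest difference in each direction given a mean count of 50 or more and the same sign at 3 hours, up to 6 called slopes in each direction, their other arms, and list members. Members and lists were chosen with earlier results of these data known. miR-239a, miR-239b, miR-243 and miR-796 were added outside this rule, with their values known. Gene neighbours are from RefSeq genes of WBcel235, in which 65 of 74 hairpins matched by name.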

Additional observations from a re-analysis of the deposited data

How the results depend on the processing

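The strain difference gave 0 miRNAs higher and 0 lower in the mutant under every alternative tried except these: 2 lower with no filter (miR-1829b-5p and miR-235-5p), 1 lower with DESeq2, and 0 to 2 higher and 0 to 8 lower when single libraries were left out. The difference of miR-235-3p stayed positive throughout and was not called in any of these alternatives, at 0.0125 to 0.242, the lowest with mutant hours 26 to 28, and at 0.0973 to 0.337 with single libraries left out. Without the hour as a replicate block it was 0.21 (adjusted p = 0.847), with 0 miRNAs called and 9 at an unadjusted p under 0.05, and the contrasts of windows also gave 0, 0 and 0 calls, so that the block changed no call. Of 539 values of 27 named miRNAs, 517 kept direction and call, 14 became called and 8 reversed. With the hour as a factor, leaving out either library of an hour gives nearly the same estimate, so such values are not independent. With mutant hours 24 to 26 the differences of miR-124-3p (0.025), miR-79-3p (0.33), miR-799 (0.018), miR-239b-5p (0.10) and miR-71-5p (-0.25) reversed. With mutant hours 26 to 28 miR-239a-5p reversed (0.38), as it did without a library of 25 h, within a range of -0.881 to 0.055 over single libraries left out. Contrasts of windows called 5, 3 and 8 miRNAs with no filter against 22 to 24, 28 to 30 and 18 to 20 h, and 4, 1 and 1 with DESeq2. Against 28 to 30 h a mean of at least 50 counts gave 1 and omission of the N2 23 h library 2. Against 18 to 20 h leaving out single libraries gave 0 to 1. Slopes gave 5 risers and 0 fallers at a threshold of 0.01, and 4 to 9 risers and 0 to 3 fallers with single libraries left out. The causes were not tested. With 2 residual degrees of freedom and a median interval of ± 0.33, small differences are beyond these 6 libraries.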

Other observations

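Some miRNAs changed sides between 25 to 27 h and other windows of the time course. miR-42-5p was 1.43, 1.29 and 1.55 times N2 in the mutant at 25, 26 and 27 h, and 0.796, 0.721 and 0.594 times at 28, 29 and 30 h (contrast 0.97 ± 0.23, edgeR, adjusted p = 0.175). miR-79-3p was 0.893, 0.811 and 0.749 times N2 at 25 to 27 h, whereas it was 1.04, 3.93 and 3.58 times at 22 to 24 h and 2.48, 1.22 and 1.15 times at 28 to 30 h. miR-1829b-5p was 0.478, 0.861 and 0.536 times N2 at 25 to 27 h, and 1.10, 1.22 and 1.17 times at 18 to 20 h (-0.76 ± 0.28, adjusted p = 0.439). The smallest adjusted p of any contrast was that of miR-243-5p against 18 to 20 h (-1.34 ± 0.29, 0.0791). These miRNAs were singled out after their values were seen.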
